A study of Mus musculus with 6 samples.

Results

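The genes described here encode the proteins of the striated muscle sarcomere and their close relatives in non-muscle cells, measured in mouse cochlear tissue. Members were taken by symbol, as the myosin heavy and light chains, the troponins, the tropomyosins, the myosin binding proteins C, the myozenins and the alpha-actinins, together with *Acta1*, *Actc1*, *Ttn*, *Ldb3*, *Tcap*, *Ckm*, *Ckmt2* and *Mb*. The rule used no measured value except to choose 1 probe per symbol, the one with the highest mean signal over all arrays. It found 66 probes for 45 of the 18138 gene symbols on the array. These 45 genes fell into 11 of fast muscle fibres, 7 of slow fibres, 5 of heart muscle, 2 of developing muscle, 8 shared by all striated fibres, 3 tropomyosins, 8 of non-muscle or smooth muscle cells, and *Tnni3k*, a heart kinase caught by its symbol alone. Another 14 genes of these classes, among them *Neb*, *Mybpc1* and *Myh3*, were not analysed here.

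The sarcomere is the contractile unit of striated muscle, in which myosin filaments pull on actin filaments that are anchored at the Z-disc by alpha-actinin. Troponin and tropomyosin on the actin filament set the calcium switch. Fast and slow fibres carry different paralogs of nearly every part, while non-muscle cells use their own myosins and actinins in the cytoskeleton. The cochlea itself is not a muscle, and the small muscles of the middle ear lie beside it.

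Cochlear tissue came from C57BL/6 mice aged 12 months, with 3 wild type (WT) and 3 *Cmah*-null samples. *Cmah*-null mice lack the enzyme that makes the sialic acid Neu5Gc, and the study asked how gene expression in their cochlea differs at an age of hearing loss. Each sample was hybridized to 1 Illumina MouseRef-8 v2 array. The columns of the deposited table call the second group "old", and they were matched to the *Cmah*-null samples as the only other group. The labels do not say that each replicate is a separate animal, so p-values measure only the spread between these samples.

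Of 25697 probes, each array detected 13873 to 15223, a probe counting as detected where its detection p was under 0.05. The probe for *Cmah* was detected on 3 of the 6 arrays, with log2 signals of 7.27, 7.28 and 7.87 in WT and of 7.95, 7.98 and 7.27 in *Cmah*-null samples. Its mean was thus higher in the *Cmah*-null samples (0.26 ± 0.26), near background, and it gives no support to the labels. Hair cell markers were partly present, with 4 of 9 (*Pou4f3*, *Slc26a5*, *Atoh1* and *Strc*) detected on no array, and 5 of 8 markers on the array of cochlear support cells and stria vascularis were detected on all 6. Among pairs of arrays, *Cmah*-null replicates 1 and 2 were the most alike (SD of the log2 differences 0.126, against 0.307 to 0.636 for the rest). Whether they came from different mice cannot be told from the arrays, and if they did not, the *Cmah*-null group holds 2 independent samples. *Cmah*-null replicate 3 stood farthest from all other arrays. The arrays of WT replicate 1 and *Cmah*-null replicates 1 and 2 had 32 to 34 beads per probe at the median, and the other 3 arrays had 38 or 39. Samples of both genotypes lay in both sets, so that values within each set are given below.

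Promoter sequences are shown for 3 members whose signals differed widely between samples, to set the letters bound by muscle transcription factors beside the values. Each run is the 250 bases before the RefSeq start on GRCm38.p6, read 5′ to 3′ on the gene's strand. Capitals mark matches on either strand to the E-box CANNTG, bound by MyoD family factors, to the CArG box, bound by serum response factor, and to the MEF2 site.
*Ttn*, chr2:76982548-76982797, minus strand: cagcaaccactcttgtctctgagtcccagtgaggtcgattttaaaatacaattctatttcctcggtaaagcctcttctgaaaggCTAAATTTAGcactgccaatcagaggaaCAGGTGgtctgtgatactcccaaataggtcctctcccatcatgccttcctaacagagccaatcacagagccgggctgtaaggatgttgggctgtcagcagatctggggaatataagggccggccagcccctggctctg
*Actc1*, chr2:114052876-114053125, minus strand: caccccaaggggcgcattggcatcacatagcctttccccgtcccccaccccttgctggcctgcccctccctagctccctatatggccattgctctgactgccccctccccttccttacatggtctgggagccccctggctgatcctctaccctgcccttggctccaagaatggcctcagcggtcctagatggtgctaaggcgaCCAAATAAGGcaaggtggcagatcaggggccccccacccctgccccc
*Myh4*, chr11:67237562-67237811, plus strand: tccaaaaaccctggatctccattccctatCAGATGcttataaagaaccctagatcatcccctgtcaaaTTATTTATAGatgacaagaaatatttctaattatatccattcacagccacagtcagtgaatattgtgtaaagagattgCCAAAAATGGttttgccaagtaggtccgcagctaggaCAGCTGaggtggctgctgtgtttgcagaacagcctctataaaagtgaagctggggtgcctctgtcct
The promoter of *Ttn* held an E-box starting 138 bases before the start and a MEF2 match at 166. That of *Actc1* held a CArG box at 47 and no E-box. That of *Myh4* held E-boxes at 221 and 67, a CArG box at 104 and a MEF2 match at 182. RefSeq gave promoters for 38 of the 45 symbols. Of 33 promoters of striated members, 27 (81.8%) held an E-box, 7 (21.2%) a CArG box and 6 (18.2%) a MEF2 match. Among all 32851 promoters the shares were 66.2%, 1.47% and 1.69%. Of 8 promoters of non-muscle members, 6 held an E-box, 1 a CArG box and 0 a MEF2 match. A match is a run of letters and was not tested as a binding site.

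Most sarcomere genes were detected and had lower means in *Cmah*-null cochlea, but 2 of the 45 passed the rule of 1.5-fold with an unadjusted p under 0.05, and 0 passed an adjusted p under 0.05. The 2 were *Mb* (myoglobin, the oxygen store of oxidative fibres) and *Ttn* (titin, the molecular spring of the sarcomere), both lower. Across all probes the same rule called 363 (1.41%) lower and 334 (1.3%) higher, and the adjusted p called 0 (0%). Among the brightest probes of the 9907 symbols detected on all arrays, 252 (2.54%) were called lower. Of the 45 members, 36 were detected on all 6 arrays and 4 on none (*Myh7*, *Myl7*, *Myoz3* and *Tnni3k*), and 3 had an unadjusted p under 0.05 in limma. The third was *Myl7*, which was not detected.

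By direction alone, 36 of the 45 members were lower in *Cmah*-null samples and 9 higher, where 12712 of all probes were lower and 12985 higher. The median log2 fold change was -0.52 for the fast members, -0.17 for the slow, -0.80 for the shared and -0.01 for the non-muscle members, beside 0.00 for all probes. This slow median was the value of *Myh7*, which was detected on no array. Among members detected on all 6 arrays the medians were -0.54, -0.21, -0.80 and -0.07 in the same order, beside 0.03 for all such probes. The class medians further down this paragraph are over all members again. All 8 shared members were lower, as were 10 of 11 fast, 5 of 7 slow, 3 of 5 cardiac, 2 of 2 developmental and 3 of 3 tropomyosin genes. The non-muscle members were split, with 4 lower and 4 higher. Differences of at least 1.5-fold downwards were seen in 6 shared, 4 fast, 1 slow, 1 cardiac and 1 non-muscle gene, and upwards in 1 non-muscle gene. Among all 25697 probes, 843 differed as much downwards and 686 upwards. Among the brightest probes of the 9907 symbols detected on all arrays, 598 did so downwards and 567 upwards. When signals were scaled to the same median in place of quantile normalization, the median of all detected probes moved from 0.03 to 0.30, that of the fast members to -0.15, of the slow members to 0.18, of the shared members to -0.29 and of the non-muscle members to 0.31. The median of the slow members thus turned positive, as it did without WT replicate 1 (0.058).

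**Figure D1:**
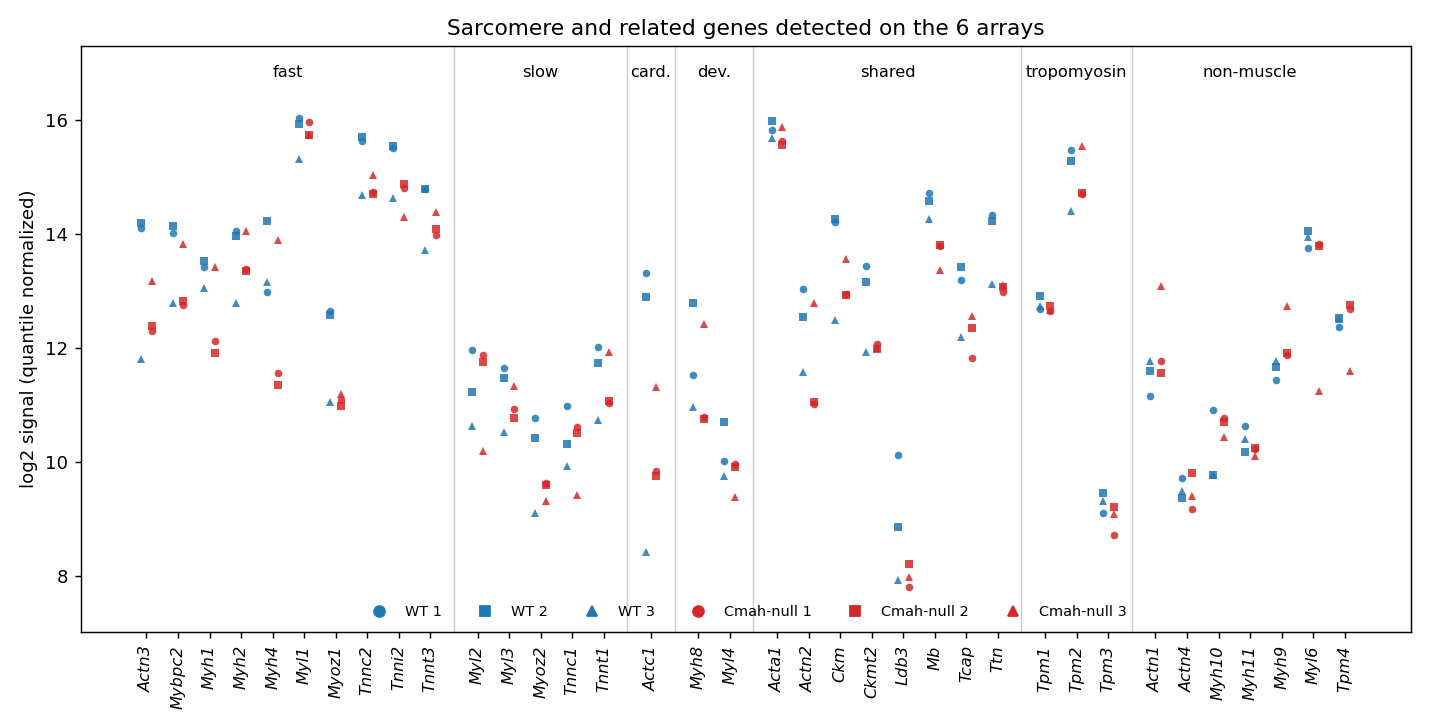
Log2 signal (y axis) of the 36 members detected on all 6 arrays (x axis, by class), 1 probe per gene and 1 point per sample, WT in blue and *Cmah*-null in red. In most striated genes WT replicates 1 and 2 lie above the other 4 samples. Levels of different genes are not comparable, because their probes differ.

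In the striated members the WT samples differed widely from each other. Of the 26 striated members detected on all arrays, WT replicate 1 was the highest sample in 14 and WT replicate 2 in 11. WT replicate 3 was below both other WT samples in 25 (96.2%), against 34.2% of the 12410 probes detected on all arrays, and it was the lowest of all 6 samples in 11. WT replicate 1 lay above all *Cmah*-null samples in 22 (84.6%) and WT replicate 2 in 20 (76.9%), but WT replicate 3 only in 2 (7.69%). For all detected probes these shares were 25.7%, 23.9% and 22.8%. The median range of the WT samples was 1.25 on the log2 scale in the striated members and 0.38 in all detected probes, while that of the *Cmah*-null samples was 0.60 and 0.52. In the 7 detected non-muscle members, WT replicate 3 was below both other WT samples in 1. In bulk tissue, fewer muscle cells and less RNA per cell cannot be told apart.

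Centred on each gene's mean over the 6 arrays, the fast members had medians of 0.53, 0.62 and -0.51 in WT replicates 1 to 3 and of -0.42, -0.47 and 0.14 in *Cmah*-null replicates 1 to 3. WT replicate 3 therefore lay below all *Cmah*-null samples, and *Cmah*-null replicate 3 was the highest of its group. The slow members had medians of 0.69, 0.31 and -0.65 in WT and of -0.18, -0.21 and -0.49 in *Cmah*-null samples. By this median *Cmah*-null replicate 3 was the lowest of its group, the reverse of its place among the fast genes. It was still the highest of its group in 2 of the 5 slow genes, and in 8 of the 10 fast genes. The shared members had 0.84, 0.64 and -0.41 in WT and -0.47, -0.35 and -0.20 in *Cmah*-null samples. The non-muscle members had 0.23, -0.13 and 0.00 in WT and -0.02, 0.31 and -0.08 in *Cmah*-null samples, with no common order. The medians that follow are over all members of a class, detected or not. Without WT replicate 3, the median log2 fold change was -0.86 for the fast, -0.47 for the slow and -1.13 for the shared members. Within the arrays with fewer beads it was -0.90, -0.42 and -1.29, and within those with more beads 0.13, -0.10 and -0.33. WT replicate 1 was the only WT sample with fewer beads, and *Cmah*-null replicate 3 the only *Cmah*-null sample with more.

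**Figure D2:**
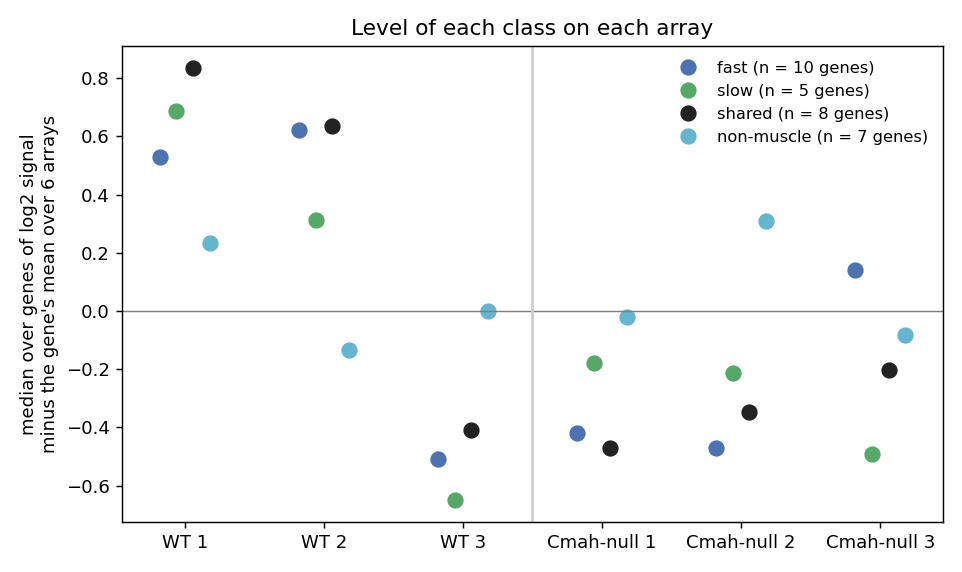
Median over the genes of a class (y axis) of log2 signal minus the gene's own mean over the 6 arrays, for each sample (x axis), in the fast (10 genes), slow (5), shared (8) and non-muscle (7) members detected on all arrays. The 3 muscle classes are high in WT replicates 1 and 2 and low in WT replicate 3, where the fast and slow medians are below those of all *Cmah*-null samples.

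Myoglobin and titin, the members called lower, differed in how they spread. *Mb* (probe at band 15qD3) had log2 signals of 14.73, 14.58 and 14.26 in WT and of 13.79, 13.80 and 13.37 in *Cmah*-null replicates 1 to 3. All *Cmah*-null samples were below all WT samples, as for 1883 (7.33%) of all probes. Its log2 fold change was -0.87 ± 0.17 (SE), or 1.83-fold, with an adjusted p of 0.397 in limma. A second *Mb* probe gave 12.47, 12.00 and 11.45 in WT and 10.97, 10.99 and 10.23 in *Cmah*-null samples, again without overlap, and a difference of -1.24 ± 0.33. On the scale of the raw signals the groups did overlap, at 13447 to 29849 in WT and 9864 to 20228 in *Cmah*-null samples. Scaled to the same median, *Mb* was lower by -0.41 (log2) and not called. In every other alternative tried *Mb* was called lower.

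*Ttn* (2qC3) had log2 signals of 14.34, 14.23 and 13.13 in WT and of 12.99, 13.07 and 13.11 in *Cmah*-null samples. The *Cmah*-null samples were within 0.12 of each other, and the lowest WT sample lay just above them. On the scale of the raw signals WT replicate 3 was at 6231.5, below the *Cmah*-null samples at 8293.0 to 11624.5. The log2 fold change was -0.84 ± 0.33 (adjusted p = 0.578, limma). Its second probe gave -0.78. *Ttn* was not called when WT replicate 1, WT replicate 2 or any of the *Cmah*-null samples was left out, nor when *Cmah*-null replicates 1 and 2 were averaged, the replicate number was a block or signals were scaled to the same median (-0.37).

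The other shared members were lower by 0.14 to 0.97 on the log2 scale, and none was called. *Ckm* and *Ckmt2*, the cytosolic and mitochondrial creatine kinases of muscle, had differences of -0.51 ± 0.52 and -0.83 ± 0.39. *Ckmt2* was at 13.44, 13.16 and 11.93 in WT and at 12.07, 11.97 and 11.99 in *Cmah*-null samples, so that WT replicate 3 alone overlapped them. The Z-disc genes *Ldb3*, *Actn2* and *Tcap* had -0.97 ± 0.54, -0.77 ± 0.60 and -0.70 ± 0.37. *Acta1*, the skeletal muscle actin of the thin filament and the brightest of this class, was at 15.82, 15.98 and 15.68 in WT and at 15.63, 15.56 and 15.88 in *Cmah*-null samples. The 2 groups overlapped, with a difference of -0.14 ± 0.12. Raw signals of *Acta1* reached 64997 where the highest signals on the arrays were 64537 to 69913.

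**Figure D3:**
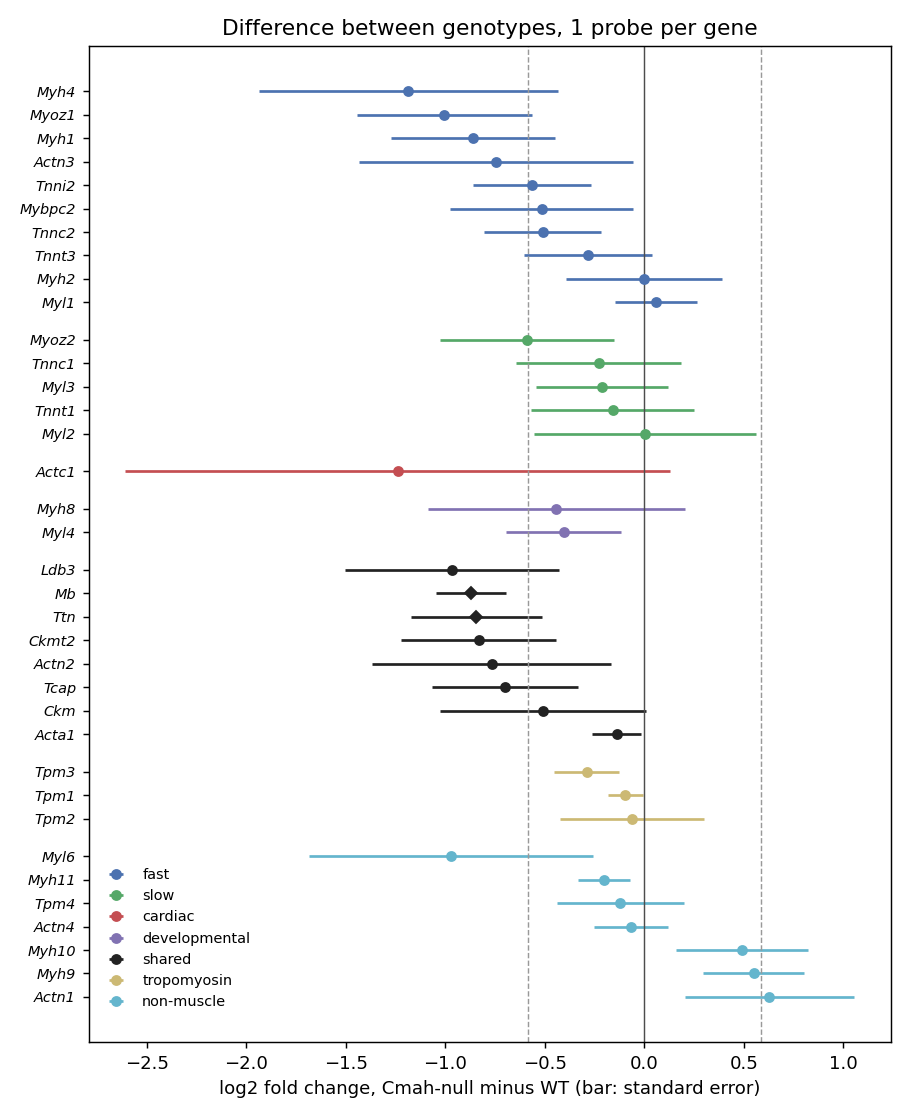
Log2 fold change, *Cmah*-null minus WT (x axis, with its standard error), for the 36 members detected on all arrays (y axis), coloured by class. Diamonds are the called genes, *Mb* and *Ttn*, and dashed lines mark 1.5-fold. Shared and fast genes lie mostly left of 0, while non-muscle genes lie on both sides.

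Among the fast members, *Myh4* (the heavy chain of fast glycolytic fibres) had the largest difference and a wide spread. It was at 12.98, 14.23 and 13.16 in WT and at 11.56, 11.35 and 13.89 in *Cmah*-null samples. Replicates 1 and 2 of the *Cmah*-null group were below all WT samples, while replicate 3 was above all but one. The log2 fold change was -1.19 ± 0.75, and without *Cmah*-null replicate 3 it was -2.00 and *Myh4* was called lower. *Myh1*, the IIx heavy chain, was also lowest in *Cmah*-null replicates 1 and 2, at 13.43, 13.53 and 13.05 in WT and 12.12, 11.90 and 13.41 in *Cmah*-null samples (-0.86 ± 0.41). *Myh2*, the IIa chain of fast oxidative fibres, had equal means, at 14.04, 13.96 and 12.79 against 13.37, 13.35 and 14.06 (-0.00 ± 0.39). These genes and *Myh8* lie in a row on chromosome 11 and are alike in sequence, and cross-hybridization of their probes was not tested.

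The 3 subunits of the fast troponin complex had lower means in *Cmah*-null samples, and none was called. *Tnnc2* (fast troponin C, which binds calcium) was at 15.63, 15.71 and 14.68 in WT and at 14.74, 14.70 and 15.04 in *Cmah*-null samples (-0.51 ± 0.29). *Tnni2* (fast troponin I, the inhibitory subunit) was at 15.50, 15.55 and 14.63 against 14.81, 14.88 and 14.30 (-0.56 ± 0.30). *Tnnt3* (fast troponin T, which binds tropomyosin) was at 14.80, 14.80 and 13.72 against 13.99, 14.08 and 14.39 (-0.28 ± 0.32, and 0.17 when scaled to the same median). In each of the 3 genes the first and second WT samples were above every *Cmah*-null sample and WT replicate 3 was not. *Mybpc2*, the fast myosin binding protein C, gave -0.52 ± 0.46 with the same order.

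Among the Z-disc genes of fast fibres, both measured on all arrays had lower means in *Cmah*-null samples. *Myoz1*, a calsarcin that tethers calcineurin, was at 12.65, 12.57 and 11.05 in WT and at 11.09, 10.97 and 11.20 in *Cmah*-null samples. The *Cmah*-null samples were tight and WT replicate 3 lay among them, with a log2 fold change of -1.004 ± 0.44 (adjusted p = 0.604, limma). *Actn3*, the alpha-actinin of glycolytic fibres, was at 14.10, 14.19 and 11.80 in WT and at 12.29, 12.38 and 13.18 in *Cmah*-null samples (-0.74 ± 0.69). WT replicate 3 was the lowest of the 6 samples for *Actn3*.

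Different probes of a gene did not always show the same difference. For *Myl1*, the fast alkali light chain, the brighter probe was at 16.04, 15.92 and 15.31 in WT and at 15.96, 15.74 and 15.74 in *Cmah*-null samples (0.06 ± 0.21). Its raw signals of 30405 to 68016 came near the array maximum. The dimmer probe was at 11.77, 11.84 and 8.97 in WT and at 8.73, 8.82 and 10.16 in *Cmah*-null samples (-1.63 ± 0.87). In this second probe WT replicates 1 and 2 lay above every *Cmah*-null sample, as each did in 8 of the 10 detected fast genes. In the brighter probe WT replicate 2 did not. *Actn3* had 3 probes with differences of -0.74, -0.93 and -1.65, and *Actc1* had -1.24 and -1.09. Of the 45 members, 15 had several probes.

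**Figure D4:**
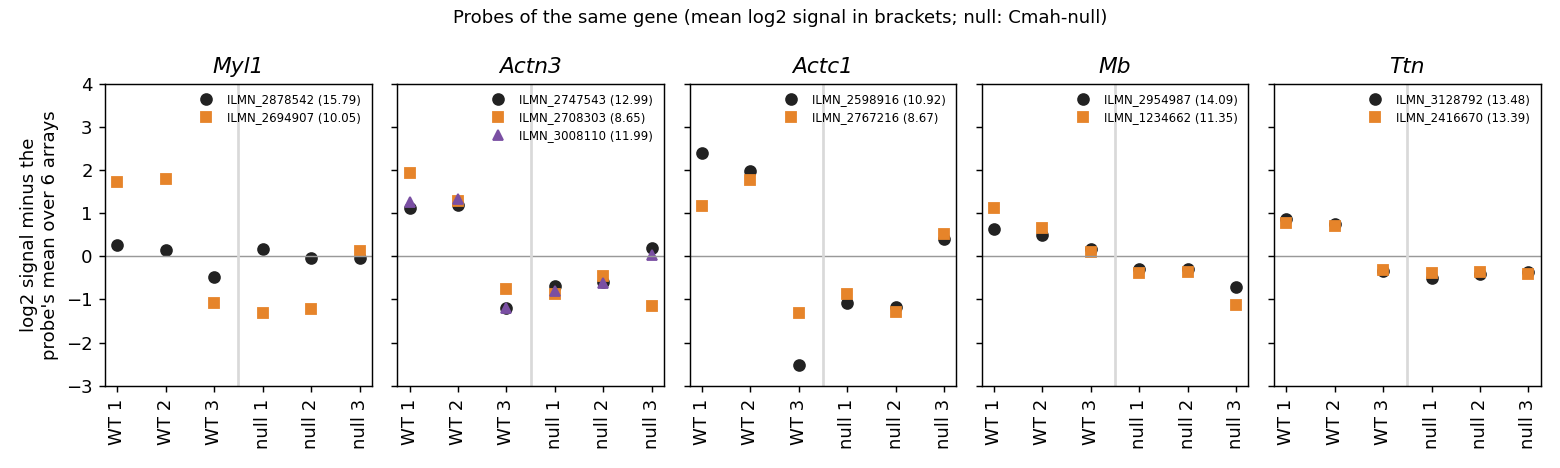
Log2 signal minus the probe's mean over the 6 arrays (y axis) in each sample (x axis) for every probe of *Myl1*, *Actn3*, *Actc1*, *Mb* and *Ttn*, 1 symbol per probe. The probes of *Ttn* and of *Mb* give the same order of the genotypes, whereas those of *Myl1* part, the dimmer probe ranging over 2.87 in WT samples and the brighter over 0.73.

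Of the slow members none was called, and 5 of 7 had lower means in *Cmah*-null samples. *Myh7*, the slow heavy chain and the defining gene of slow fibres, was detected on no array, and *Tnni1* (slow troponin I) on 4 of 6. *Tnnt1*, slow troponin T and the brightest slow member, was at 12.02, 11.73 and 10.73 in WT and at 11.02, 11.06 and 11.92 in *Cmah*-null samples (-0.16 ± 0.41). *Myl3*, the slow and ventricular essential light chain, was at 11.65, 11.48 and 10.52 against 10.92, 10.76 and 11.33 (-0.21 ± 0.33). The groups overlapped in both genes, and both differences turned positive, to 0.34 and 0.26, when signals were scaled to the same median.

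*Tnnc1*, the troponin C of slow and heart muscle, was at 10.98, 10.32 and 9.92 in WT and at 10.61, 10.51 and 9.41 in *Cmah*-null samples (-0.23 ± 0.41, and 0.18 when scaled to the same median). *Myoz2*, the slow and cardiac calsarcin, was at 10.77, 10.42 and 9.09 against 9.62, 9.59 and 9.31 (-0.59 ± 0.44). *Myl2*, the slow regulatory light chain, had no difference of means (0.00 ± 0.56). In *Myoz2*, *Tnnc1* and *Myl2* the third *Cmah*-null sample was the lowest of its group, while in *Myl3* and *Tnnt1* it was the highest.

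Whether fast genes differed more than their slow paralogs was tested within each array, as the log2 ratio of the fast over the slow gene. In *Actn3*/*Actn2* the second gene is of the shared class, so that ratio does not compare fast with slow. Of 8 pairs, 5 had both genes detected on all arrays. *Myoz1*/*Myoz2* had ratios of 1.88, 2.15 and 1.96 in WT and of 1.47, 1.38 and 1.89 in *Cmah*-null samples, a difference of -0.41 (two-sided exact permutation test, p = 0.2). The ranges overlapped only through *Cmah*-null replicate 3. For *Tnnc2*/*Tnnc1* the ratio was 4.65, 5.39 and 4.76 against 4.13, 4.19 and 5.63, and the difference was -0.28 (exact p = 0.6). The difference was 0.27 for *Myl1*/*Myl3* (exact p = 0.3), where the *Myl1* probe was near the array maximum and the mean of both *Myl1* probes gave -0.57. It was -0.13 for *Tnnt3*/*Tnnt1* (exact p = 0.6) and 0.02 for *Actn3*/*Actn2* (exact p = 1). Adjusted over the 5 pairs, the p-values were 0.75 to 1, and 3 samples against 3 cannot go below 0.1. The groups overlapped in all 5 pairs, and a test of this size does not show that a ratio is unchanged. *Tnni2*/*Tnni1* and *Myh4*/*Myh7* were not tested, because the slow gene was not detected on all arrays.

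**Figure D5:**
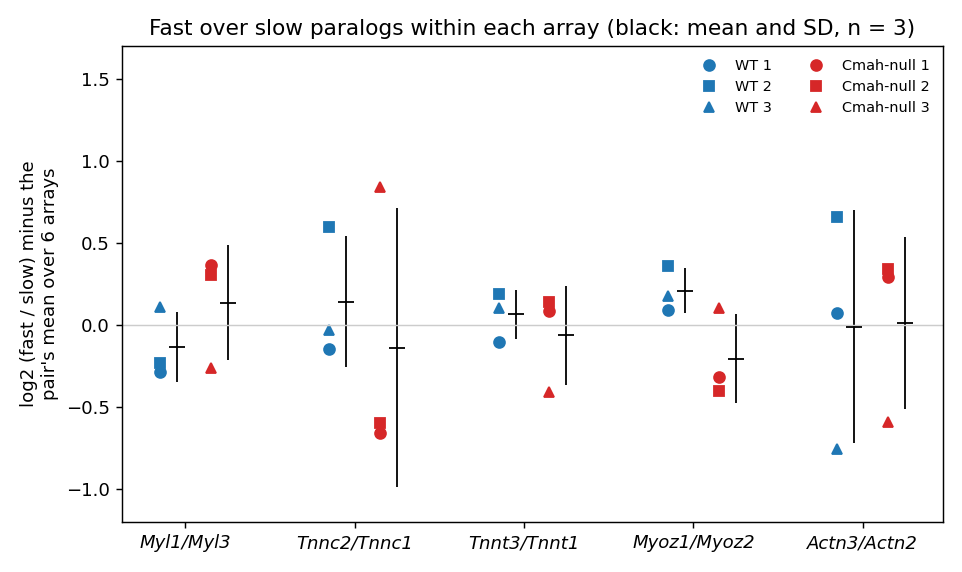
Log2 ratio of a fast gene to its paralog within an array, minus the pair's mean over the 6 arrays (y axis), for the 5 pairs detected on all arrays (x axis), with the mean and SD of each group (n = 3) in black. The paralog is of the shared class in *Actn3*/*Actn2* and slow in the other pairs. WT and *Cmah*-null points overlap in every pair, and in *Tnnc2*/*Tnnc1* replicate 3 is the highest of the *Cmah*-null samples.

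Of the cardiac members, *Actc1* (cardiac actin, also made in developing and regenerating skeletal muscle) alone was detected on all arrays. It was at 13.32, 12.89 and 8.41 in WT and at 9.84, 9.75 and 11.31 in *Cmah*-null samples. The WT samples spanned 4.91 on the log2 scale, the widest range of any member, with WT replicate 3 the lowest of the 6 samples. The log2 fold change was -1.24 ± 1.37 (adjusted p = 0.821, limma) and -2.80 without WT replicate 3. *Mybpc3* was detected on 5 arrays, *Myh6* and *Tnni3* on 3 each and *Myl7* on none. The heart markers *Nppa* and *Ryr2* were likewise not detected, and 1 of 8 heart markers was detected on all arrays. That list of 8 also holds *Myh6*, *Tnni3* and *Myl7*.

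Both developmental members were detected on all arrays. *Myh8*, the perinatal heavy chain, was at 11.51, 12.79 and 10.96 in WT and at 10.78, 10.75 and 12.41 in *Cmah*-null samples (-0.44 ± 0.64, and 0.06 when scaled to the same median). As for *Myh4*, WT replicate 2 was highest and *Cmah*-null replicate 3 next. *Myl4*, the embryonic and atrial light chain, gave -0.40 ± 0.29.

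The tropomyosins, whose genes serve muscle and non-muscle cells through different isoforms, differed little between genotypes. *Tpm2*, the brightest, was at 15.47, 15.29 and 14.41 in WT and at 14.70, 14.73 and 15.55 in *Cmah*-null samples (-0.06 ± 0.36). The third WT sample was again the lowest and the third *Cmah*-null sample the highest. *Tpm1* ranged from 12.64 to 12.91 over all samples (-0.10 ± 0.09), a spread smaller than in any fast member, and *Tpm3* gave -0.29 ± 0.16.

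The non-muscle members did not share the order of the sarcomere genes. *Myh9*, the heavy chain of non-muscle myosin IIA and a human deafness gene, was at 11.43, 11.67 and 11.77 in WT and at 11.88, 11.91 and 12.73 in *Cmah*-null samples. All *Cmah*-null samples were above all WT samples, as for 2342 of all 25697 probes. The log2 fold change of 0.55 ± 0.25 was under 1.5-fold (adjusted p = 0.624, limma). *Actn1*, the non-muscle alpha-actinin, was at 11.16, 11.59 and 11.76 against 11.76, 11.56 and 13.08 (0.63 ± 0.43). Its difference rested on *Cmah*-null replicate 3, without which it was 0.16.

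*Myh10*, the heavy chain of non-muscle myosin IIB, was at 10.90, 9.76 and 9.76 in WT and at 10.76, 10.70 and 10.44 in *Cmah*-null samples (0.49 ± 0.33). WT replicate 1 lay above every *Cmah*-null sample, and without it *Myh10* was called higher at 0.87. *Myl6*, the non-muscle essential light chain and the brightest of this class, was at 13.75, 14.05 and 13.95 in WT and at 13.81, 13.79 and 11.24 in *Cmah*-null samples (-0.97 ± 0.71). The third *Cmah*-null sample alone was low, and without it the difference was -0.12. *Tpm4* was also low in that sample, at 11.59 against 12.36 to 12.76 in the others. *Myh11*, the smooth muscle heavy chain, gave -0.20 ± 0.13. The 9 vascular smooth muscle markers, *Myh11* among them, had a median of 0.01, with 4 lower, 5 higher and 0 called.

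The wider sarcomere was described by a list of Z-disc and M-band genes, of which 22 of 32 were on the array. Of these, 19 were lower and 3 higher, the median being -0.29 (log2), and 1 was called lower. This was *Smpx*, a small cytoskeletal protein of striated muscle that is known as a gene of X-linked deafness. It was at 9.97, 10.45 and 9.27 in WT and at 9.23, 9.07 and 9.12 in *Cmah*-null samples (-0.76 ± 0.29, adjusted p = 0.574 in limma). The *Cmah*-null samples were all below the WT samples, WT replicate 3 by a small margin. When single samples were left out, *Smpx* was called without WT replicate 3 and in no other case, and it was not called with scaling to the same median, either block, averaging of *Cmah*-null replicates 1 and 2, or the mean of all probes.

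*Mylpf*, the fast regulatory light chain, was at 15.55, 15.48 and 13.33 in WT and at 13.93, 14.02 and 11.47 in *Cmah*-null samples (-1.65 ± 0.92). The third sample of each genotype was the lowest of its group. *Fhl1* and *Pdlim3*, LIM domain proteins of the Z-disc region, gave -0.20 ± 0.22 and -0.39 ± 0.44. Of 12 muscle transcription factors 11 were on the array and 0 were called, with a median of -0.05. *Myod1* and *Myf5* were detected on no array. *Mef2c* and *Srf*, which were among the brightest, gave -0.30 ± 0.17 and 0.26 ± 0.34.

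Markers of skeletal muscle outside the members, such as *Ryr1*, *Casq1* and *Pvalb*, had lower means in all 9 of 9 on the array, with a median of -0.45 and 0 called. Their mean log2 signal was 13.18, 12.79 and 11.96 in WT and 11.96, 12.10 and 12.22 in *Cmah*-null samples. WT replicate 3 was thus at the level of the *Cmah*-null samples here too. Of 8 markers of brown fat 7 were lower, and 5 were called (*Ucp1*, *Cidea*, *Cox7a1*, *Cox8b* and *Ppargc1a*), with differences of -2.11 to -0.65. The study also lists *Cox7a1* and *Cox8b* under cardiac muscle contraction, so the list is not particular to brown fat. The mean log2 signal of the brown fat list was 10.73 to 11.12 in WT and 9.37 to 10.15 in *Cmah*-null samples. *Dio2* and *Prdm16* were not detected. The genotypes did not overlap in the mean of the brown fat list, as they did not in *Mb*. The part of brown fat, of the number of beads and of the dissected tissue in the difference of *Mb* and *Ttn* was not tested.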

How the data were processed

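Total RNA of cochlear tissue from WT and *Cmah*-null mice, in 3 WT and 3 *Cmah*-null samples, was labelled and hybridized to 1 Illumina array per sample. The deposited raw table holds intensity values, each the mean signal of a probe's beads without normalization or background subtraction, and beside it the bead standard error and number of beads. Its detection p-value column came with the signals, per the file headers. A second deposited table holds log2 values that the authors obtained by quantile normalization, and these equalled quantile-normalized log2 raw signals within 5.0e-07. Its columns of fold changes and local pooled error statistics hold the authors' own comparison and were not used, nor were 12 columns repeating per-sample values.

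Genotypes were compared on the log2 values by limma 3.58.1 (functions lmFit and eBayes, R 4.3.3), two-sided and without covariates. Benjamini-Hochberg adjustment ran over all 25697 probes. A gene was called at 1.5-fold with an unadjusted p under 0.05, after the methods of the study, and separately at an adjusted p under 0.05. A fold change is between means of log2 values. The fit was tested on simulated data. Paralog ratios were compared with an exact permutation test in scipy 1.17.1. The number of arrays limits the precision. Probe names are those of the array's annotation. The members and lists were chosen with earlier results of these data known. Values per sample are given for called members, both genes of each tested pair except *Actn2*, and the brightest gene of each class other than *Tnni3k*. Any further gene was named with its values in view. Promoter motifs were searched on both strands, the E-box, CArG box and MEF2 site.

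Alternatives were neqc normalization (offset 16), scaling to the same median, the replicate number as a block, probes detected on at least 3 arrays alone, leaving out each array, *Cmah*-null replicates 1 and 2 averaged, the set of arrays by number of beads as a block, a variance prior with trend and robust, and the mean of all probes of a symbol. Medians within each bead set were added after seeing the data. The labels do not say that replicate numbers pair the samples, so the main fit had no block. Same-numbered samples correlated at 0.02, -0.17 and 0.01 in their deviations from the group mean, which does not settle whether they were paired. Figures were drawn with matplotlib 3.10.9.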

Additional observations from a re-analysis of the deposited data

How the results depend on the processing

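Of 392 alternative values for 28 members, 377 kept their direction and 15 reversed, and none passed an adjusted p. The count of kept directions includes alternatives that cannot alter a fold change. These are the replicate block, the filter on detection, the variance prior and, for a gene with 1 probe, the mean of all probes. The number of members passing that threshold was 0 throughout. The 2 members called lower became 0 with scaling to the same median, 1 with the replicate block or with *Cmah*-null replicates 1 and 2 averaged (*Mb* in both), 4 with the bead block (*Ldb3*, *Mb*, *Tnni2* and *Ttn*, where 873 of all probes were called lower and 855 higher), and 1 to 14 when a sample was left out. The 14, without WT replicate 3, included *Mb*, *Ttn*, *Actc1*, *Actn3*, *Ckm* and *Ckmt2*, where 524 of all probes were called lower. Without *Cmah*-null replicate 3 there were 4 (*Actn2*, *Mb*, *Myh1* and *Myh4*, where 467 of all probes were), and without each of the other samples *Mb* alone. The 0 members called higher became 2 (*Actn1* and *Myh9*) with scaling to the same median, where 2409 of all probes were, and 2 with the bead block, and 0 to 1 when a sample was left out. The 1 companion gene called became 2 with the replicate block, 0 with averaging, 2 with the bead block and 0 to 7 when a sample was left out.

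Within the arrays with more beads the median log2 fold change was 0.13 for fast, 0.14 for cardiac and 0.13 for non-muscle members. Within those with fewer beads it was -0.28 for cardiac and -1.29 for shared members. Each of these medians rests on WT replicate 1 alone for WT, or on *Cmah*-null replicate 3 alone for *Cmah*-null. Scaling to the same median gave -0.29 for shared and 0.31 for non-muscle members, and the filter on detection gave -0.27 for cardiac members (main value -0.05).

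The ratio *Myl1*/*Myl3* reversed to -0.0064 with scaling to the same median and to -0.57 with the mean of all probes, and *Tnnc2*/*Tnnc1* to 0.036 with the bead block. *Actn3*/*Actn2* reversed to -0.025 with scaling to the same median, -0.34 with the mean of all probes, -0.13 with averaging and -0.15 with the bead block. When a sample was left out it ranged from -0.35 to 0.36, and *Tnnt3*/*Tnnt1* from -0.23 to 0.048. Under scaling to the same median *Myh8* reversed to 0.062, *Tnnt3* to 0.17, *Myl3* to 0.26, *Tnnt1* to 0.34, *Tnnc1* to 0.18 and *Acta1* to 0.18. *Myl1* reversed to -0.029 with the bead block and to -0.78 with the mean of all probes. With a sample left out, *Myh8* ranged from -0.99 to 0.078, *Myl1* from -0.16 to 0.20, *Myl3* from -0.56 to 0.0051, *Tnnt1* from -0.54 to 0.11 and *Tnnc1* from -0.47 to 0.16. The replicate block cannot alter a fold change, because each replicate number held 1 sample of each genotype, and only its p-values could move. The labels do not pair the samples. The causes were not tested.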
